A study of Mus musculus with 169 samples.

Results

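Fc gamma receptors bind the constant part of IgG and let phagocytes respond to antibody-coated targets. The 5 genes described here are Fcgr1, Fcgr3 and Fcgr4, which encode the activating receptors of the mouse, Fcer1g, which encodes the signaling adaptor that these receptors share, and Fcgr2b, which encodes the inhibitory receptor. They were found by name among the 20145 gene symbols of a single-color Agilent array, and each had 1 probe (A_55_P2008740 for Fcgr1, A_52_P408757 for Fcgr3, A_51_P181517 for Fcgr4, A_51_P405476 for Fcer1g and A_51_P130095 for Fcgr2b). The Fcgr2b probe was spotted 10 times on each array. All 5 probes passed the filter of at least 3 arrays with a signal clearly over background, so all 5 genes were among the 31927 features tested, 17798 of which carry a gene symbol.

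The series measured expression in mice that lack progranulin, the product of Grn, which cells secrete and also carry in lysosomes. The arrays used here hold total RNA of microglia from Grn-/- mice (KO) and Grn+/+ mice (WT) on a C57B/6J background, aged 4 or 16 months. Microglia, the resident macrophages of the brain, were enriched on Percoll and sorted by flow cytometry with antibodies to CD11b, CD45 and Ly6G. There were 3 KO and 4 WT arrays at 4 months and 4 KO and 4 WT arrays at 16 months. The labels name no sex and no deletion allele and do not say whether an array holds 1 mouse or a pool, so p-values measure only the spread between these samples, which may be technical.

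Levels are the log2 of the processed signal over the 75th percentile of its array, which was 1072 to 1752 on KO and 1306 to 1649 on WT arrays at 4 months and 507 to 1037 on KO and 1010 to 1511 on WT arrays at 16 months. Probes above background made up 66.4 to 73.0% on KO and 70.3 to 76.5% on WT arrays at 4 months and 54.2 to 62.7% on KO and 64.6 to 69.8% on WT arrays at 16 months. The number of arrays limits the precision. WT arrays 1 and 2 at 16 months differed by a median absolute deviation of 0.124, arrays 3 and 4 by 0.0954, and all other pairs of arrays within a group by 0.382 to 1.28. These pairs were each averaged, which leaves 2 WT replicates at 16 months and 13 replicates in all. Grn itself was above background on 0 of 4 KO and 4 of 4 WT arrays at 16 months and was at least 1009.7-fold lower in KO (limma's moderated test, adjusted p = 3.76e-07). At 4 months its level was -2.77 ± 0.66 in KO (SD, n = 3) and 6.25 ± 0.086 in WT (SD, n = 4). A slide held arrays of 1 age, which means that an effect of age cannot be told apart from one of the slide. KO and WT arrays lay in different rows of a slide, and genotype cannot be told apart from row either.

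The activating receptors bind immune complexes with an extracellular part and depend for surface expression and signaling on the FcR gamma chain, the product of Fcer1g. That chain carries an immunoreceptor tyrosine-based activation motif (ITAM), which Src family kinases phosphorylate and which then recruits the kinase Syk. Fcgr2b carries an inhibitory motif (ITIM) in its own tail and recruits the lipid phosphatase SHIP1, the product of Inpp5d. The balance between both arms sets the threshold at which macrophages and microglia answer to IgG. Fcgr1 is the high-affinity receptor and a classic target of interferon gamma, whereas Fcgr3 and Fcgr4 bind IgG in complexes.

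Promoter windows of all 5 genes were matched in RefSeq (GRCm38.p6), each from 250 bases before to 50 bases after the start of transcription. Fcgr1 lies on chromosome 3 and the other 4 genes on chromosome 1. Windows of the 2 genes that passed the test at 16 months and of the inhibitory receptor are printed, as the genes that the comparisons below set against each other. Capitals mark TTCCTC, the reverse complement of GAGGAA, a core bound by the myeloid factor PU.1, and TTCNNNGAA, the core that STAT factors bind in interferon gamma-activated sites. Both strands were searched for both motifs, and no 2 matches overlapped.
Fcgr1 (chr3:96293920-96294219, minus strand): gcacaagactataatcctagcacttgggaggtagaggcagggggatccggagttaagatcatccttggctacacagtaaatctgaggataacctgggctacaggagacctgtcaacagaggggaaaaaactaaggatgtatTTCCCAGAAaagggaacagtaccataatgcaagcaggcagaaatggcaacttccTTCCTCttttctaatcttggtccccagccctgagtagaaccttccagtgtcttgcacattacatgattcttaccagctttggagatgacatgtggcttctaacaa
Fcer1g (chr1:171234300-171234599, minus strand): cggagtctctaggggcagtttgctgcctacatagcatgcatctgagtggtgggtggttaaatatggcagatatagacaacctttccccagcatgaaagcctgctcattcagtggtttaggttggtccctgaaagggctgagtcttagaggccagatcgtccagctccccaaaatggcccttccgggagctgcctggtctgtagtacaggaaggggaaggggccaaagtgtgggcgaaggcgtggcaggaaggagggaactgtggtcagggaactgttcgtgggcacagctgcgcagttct
Fcgr2b (chr1:170976022-170976321, minus strand): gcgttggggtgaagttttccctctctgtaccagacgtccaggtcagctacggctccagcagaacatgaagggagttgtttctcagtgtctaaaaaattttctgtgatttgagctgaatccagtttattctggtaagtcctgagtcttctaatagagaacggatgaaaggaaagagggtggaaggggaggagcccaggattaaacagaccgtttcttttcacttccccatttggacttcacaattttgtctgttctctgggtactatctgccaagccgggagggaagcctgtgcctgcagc
The Fcgr1 window held both motifs, with the first base of TTCCCAGAA at -109 and that of TTCCTC at -55 from the start site. The windows of Fcgr3 and Fcgr4 held TTCCTC as well, at -22 in Fcgr4 and at -6 or -15 in Fcgr3, for which the table lists 2 start sites. Neither set of letters was in the windows of Fcer1g and Fcgr2b. GAGGAA was in 28.3% of 32851 promoter windows of this length and TTCNNNGAA in 8.3%. These matches describe the letters of the windows and show no binding.

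At 16 months the levels of all 5 genes averaged lower in KO than in WT microglia, and the adaptor Fcer1g and the high-affinity receptor Fcgr1 passed the test. Fcgr1 was 22.5-fold lower and Fcer1g 5.84-fold lower in KO. Without KO array 1, where the Fcgr1 probe was not well above background, Fcgr1 was 9.12-fold lower. Fcgr4, Fcgr2b and Fcgr3 did not pass. Against these 2 of 5 genes, features called lower made up 15.1% of all features at this age, those called higher 19.3% and both together 34.4% (10987 of 31927), and 44.8% had an unadjusted p under 0.05. With the 75th percentile taken over probes above background on all arrays, 4658 features were higher and 6106 lower, against 6152 higher and 4835 lower with all spots. The median difference over all features was 0.12, and relative to it Fcgr1 differed by -4.61, Fcer1g by -2.66, Fcgr4 by -2.43, Fcgr2b by -1.35 and Fcgr3 by -1.28. In RNA of a sorted population, fewer cells of a type and less RNA per cell cannot be told apart.

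Fcgr1 had levels of -4.51, 0.93, 0.41 and 0.77 on the 4 KO arrays at 16 months, against 3.34, 3.49, 4.30 and 4.43 on the 4 WT arrays. Every KO array lay below every WT array, and KO array 1, where the probe was not well above background, lay far below the other KO arrays. The difference was -4.49 (SE 1.24, 95% interval -7.24 to -1.74, adjusted p = 0.0180 by limma's moderated test). Without KO array 1 the difference was -3.19. The call was lost when WT arrays 1 and 2 were left out (adjusted p = 0.0595), when WT arrays 3 and 4 were left out (adjusted p = 0.112), with the replicate number as a block (adjusted p = 0.0531), and in a model of the older arrays without the 4-month ones (adjusted p = 0.168).

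Fcer1g, which brings the ITAM to all activating Fc gamma receptors, had levels of 2.58, 4.65, 5.03 and 4.49 on the KO arrays at 16 months, against 6.44, 6.40, 6.98 and 7.11 on the WT arrays. The groups did not overlap, and KO array 1 was again the lowest. The difference was -2.55 (SE 0.56, 95% interval -3.78 to -1.31, adjusted p = 0.00601 by limma). Without WT arrays 3 and 4 the adjusted p was 0.0528, and in a model without the 4-month arrays it was 0.09996. Fcgr1 and Fcer1g were the 2 members without overlap, and features without overlap and lower in KO made up 18.1% of all features at this age, those higher in KO 24.1%.

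Fcgr4, an activating receptor of intermediate affinity, had levels of -1.20, -3.64, 0.63 and 1.45 on the KO arrays at 16 months and of 1.20, 1.35, 1.96 and 1.99 on the WT arrays. KO array 4 lay within the WT range and the other KO arrays below it. Its difference of -2.32 (SE 1.08, 95% interval -4.70 to 0.062) did not pass limma's test (adjusted p = 0.120). Without KO array 4 it passed (-3.03, adjusted p = 0.0306).

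Fcgr3, the low-affinity activating receptor, had levels of 1.15, 0.056, 2.75 and 3.496 on the KO arrays at 16 months and of 2.00, 2.11, 3.99 and 4.01 on the WT arrays. KO arrays 3 and 4 lay within the WT range, and the WT arrays themselves formed a low and a high pair. The difference was -1.16 (SE 0.83, 95% interval -3.00 to 0.68, adjusted p = 0.314), so a decrease of the size measured for Fcer1g lay inside its interval. Leaving out single replicates gave differences of -2.13 to -0.19.

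Fcgr2b, the inhibitory receptor, had levels of 2.19, 2.49, 3.99 and 4.995 on the KO arrays at 16 months and of 3.80, 3.83, 5.43 and 5.53 on the WT arrays. KO arrays 3 and 4 again lay within the WT range. The SD of the repeat spots of its probe within an array was 0.119 to 0.165 on the log2 scale, small beside the gaps between arrays. The difference was -1.23 (SE 0.71, 95% interval -2.80 to 0.34, adjusted p = 0.208 by limma), and it passed without KO array 4 (-1.76, adjusted p = 0.0366) and with the replicate number as a block (adjusted p = 0.0424). Fcgr2b, Fcgr3 and Fcgr4 share long stretches of related sequence, and the array files give no probe sequences, so cross-hybridization between their probes was not tested.

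**Figure D1:**
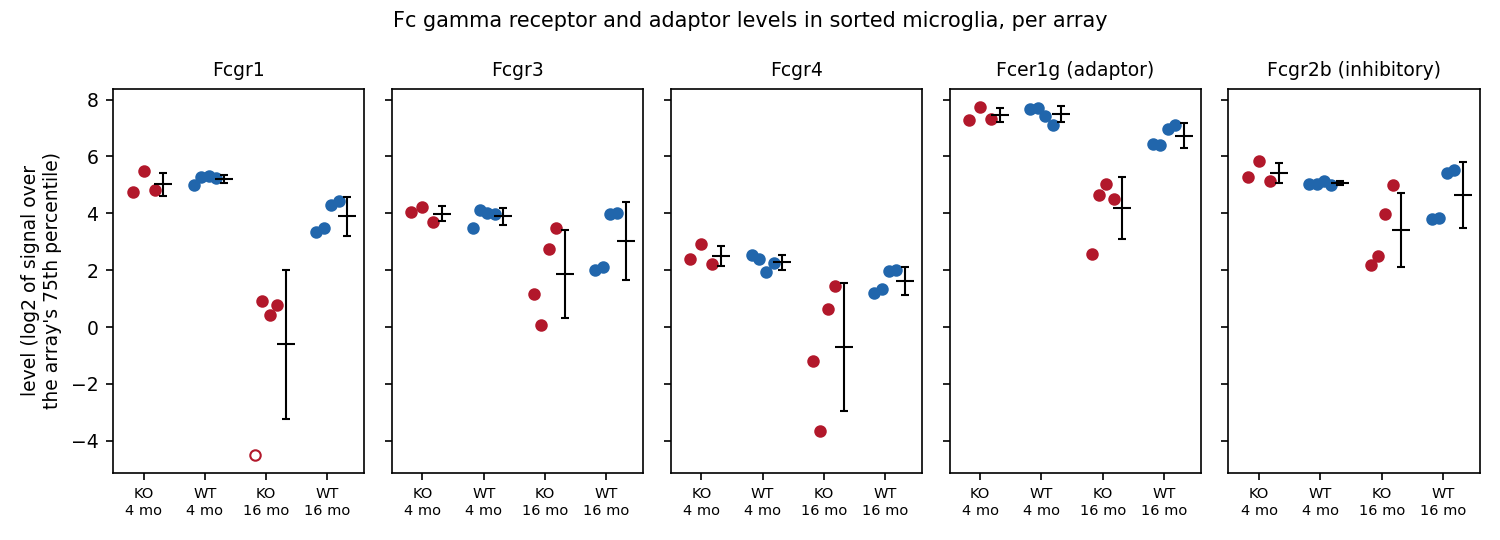
Level of each gene on each array (log2 of the processed signal relative to the 75th percentile of its array), with KO in red left of WT in blue at 4 and then 16 months; the open point was not well above background, and bars give the mean and SD over replicates. At 16 months the 4 KO points of Fcgr1 and Fcer1g lie below all WT points, and those of Fcgr3, Fcgr4 and Fcgr2b overlap them.

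At 4 months no member passed the test between KO and WT microglia. Fcgr1 averaged 5.02 ± 0.41 in KO (SD, n = 3) and 5.21 ± 0.16 in WT (SD, n = 4), and Fcer1g 7.45 ± 0.25 in KO and 7.48 ± 0.27 in WT. Fcgr3 averaged 3.98 ± 0.26 in KO and 3.89 ± 0.29 in WT, and Fcgr4 2.50 ± 0.36 in KO and 2.28 ± 0.26 in WT. Fcgr2b averaged 5.42 ± 0.37 in KO and 5.06 ± 0.066 in WT, with KO levels of 5.27, 5.84 and 5.15 against WT levels of 5.04, 5.04, 5.15 and 4.998. KO and WT arrays overlapped for all 5 genes. The differences were -0.19 for Fcgr1 (95% interval -2.61 to 2.24), -0.036 for Fcer1g (-1.13 to 1.06), 0.094 for Fcgr3 (-1.53 to 1.72), 0.22 for Fcgr4 (-1.88 to 2.32) and 0.36 for Fcgr2b (-1.03 to 1.75). These intervals rest on 1 spread per gene shared by all groups, including the wider KO group of 16 months (SD 2.62 for Fcgr1). They are therefore not the spread of the 4-month replicates alone. Each adjusted p was 1 by limma and 0 of 5 genes had an unadjusted p under 0.05, in a comparison where 0.0251% of features were called (8 of 31927, with 0.0094% lower and 0.0157% higher) and 6.05% had an unadjusted p under 0.05. Features without overlap made up 6.68% lower in KO and 4.98% higher in KO. In a model of the 4-month arrays alone, 26 features were called and no member passed (lowest adjusted p = 0.470 by limma, for Fcgr2b). Summed neutrophil markers reached 205 to 262 times the 75th percentile on the KO arrays and 34.6 to 120.5 on the WT arrays at this age. Monocyte markers were at 15.6 to 37.4 on KO and 4.04 to 12.4 on WT arrays. Among them Chil3 had a level of 4.49 in KO and 2.57 in WT, while 3 of 5 were lower in KO (median -0.035). Border macrophage markers were at 5.22 to 8.98 on KO and 2.153 to 3.55 on WT. B cell markers were at 4.92 to 8.54 on KO and 9.13 to 10.4 on WT. Among these Cd79b had a level of 2.62 in KO and 3.275 in WT, and Ms4a1, Cd79a and Pax5 had -3.66 or lower in both. The part of these cells in the values was not tested.

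The KO effect at 16 months minus that at 4 months was -4.30 for Fcgr1, -2.54 for Fcgr4, -2.51 for Fcer1g, -1.59 for Fcgr2b and -1.25 for Fcgr3 on the log2 scale. Of these 5 interaction terms, 0 passed limma's test and 2 had an unadjusted p under 0.05. The adjusted p was 0.0504 for Fcer1g (SE 0.75), 0.111 for Fcgr1 (SE 1.66), 0.264 for Fcgr4, 0.289 for Fcgr2b and 0.486 for Fcgr3. Over all features 13.3% were called (6.48% lower and 6.8% higher), and 30.4% had an unadjusted p under 0.05. The Fcer1g term moved past the threshold when KO array 1, 2 or 3 of 16 months was left out (adjusted p = 0.0111, 0.0444 and 0.0358), and the Fcgr1 term without KO array 1 (adjusted p = 0.00368). Across the 4 groups each gene was lowest in KO microglia of 16 months, and WT microglia of 16 months came next, with Fcgr1 at 3.89 ± 0.67, Fcer1g at 6.73 ± 0.44, Fcgr2b at 4.65 ± 1.17, Fcgr3 at 3.03 ± 1.37 and Fcgr4 at 1.63 ± 0.50 (SD, n = 2 each). The KO and WT groups of 4 months followed in either order, within their spread. WT replicates of both ages overlapped for Fcgr2b, Fcgr3 and Fcgr4 but not for Fcgr1 and Fcer1g, which were lower at 16 months. Over all features 22.3% were lower and 8.06% higher at 16 months without overlap, and the step between ages was not tested because age and slide coincide.

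**Figure D2:**
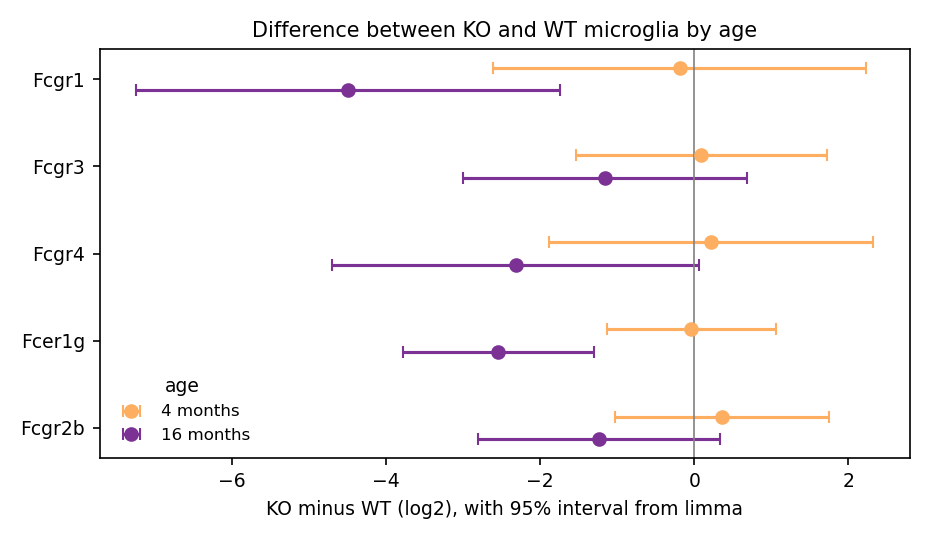
Difference between KO and WT microglia (log2, x axis) for each gene, with the 4-month value above the 16-month one and bars for the 95% interval from limma. At 16 months the intervals of Fcgr1 and Fcer1g lie below 0, and those of the other 3 genes reach 0; at 4 months all 5 include 0.

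Whether activating and inhibitory receptors moved apart was read from the difference between each activating gene and Fcgr2b within a replicate, which no scaling of the array changes. The size of such a difference depends on both probes, so only its change between groups was used. Fcgr1 minus Fcgr2b was -6.70, -1.56, -3.58 and -4.22 in the KO replicates at 16 months, against -0.40 and -1.11 in the WT replicates. Every KO replicate was lower than both WT replicates, with a difference of -3.26 between the means, but an exact permutation test over the difference of means gave p = 0.2 (two-sided), and 4 against 2 replicates allow no p below 0.0667. The value of -6.70 is from KO array 1, where the Fcgr1 probe was not well above background. Without that array the difference was -2.37. At 4 months Fcgr1 minus Fcgr2b was -0.53, -0.34 and -0.33 in KO, against -0.060, 0.22, 0.18 and 0.26 in WT. The groups did not overlap there, with a difference of -0.55 (exact permutation p = 0.0286, the smallest that 3 against 4 replicates allow). With both ages joined and labels permuted within an age, the difference was -1.90 (exact permutation p = 0.04), and 0.24 after Benjamini-Hochberg adjustment over the 12 tests of this kind.

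The adaptor showed a smaller gap of the same sign. Fcer1g minus Fcgr2b was 0.38, 2.17, 1.04 and -0.51 in KO at 16 months, against 2.60 and 1.57 in WT, and 1 KO replicate lay between the WT replicates. The difference was -1.31 at 16 months, -0.40 at 4 months and -0.85 over both ages (exact permutation p = 0.105, adjusted p = 0.343). Fcgr4 minus Fcgr2b differed by -0.61 over both ages (exact permutation p = 0.341). For Fcgr3, the low-affinity activating receptor, the difference was 0.070 at 16 months and -0.098 over both ages (exact permutation p = 0.726), the least of the 4. None of the 12 adjusted p-values was under 0.05, so a shift between the activating and the inhibitory arm was not shown for any of the genes.

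**Figure D3:**
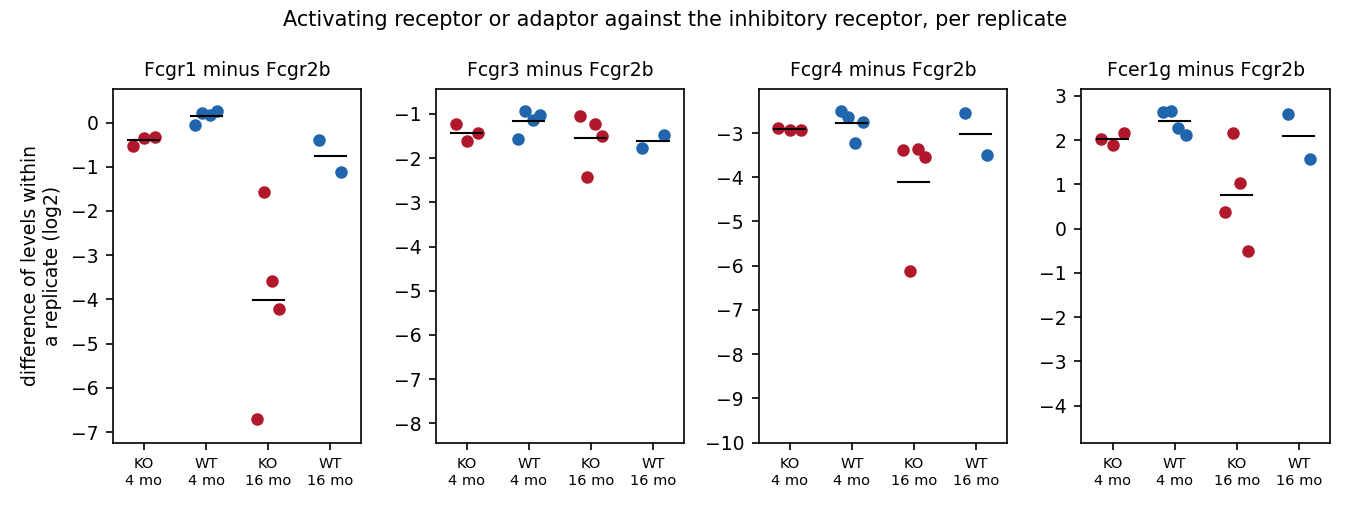
Level of each activating gene minus that of Fcgr2b in each replicate (log2), with KO in red left of WT in blue at 4 and then 16 months, lines for group means and the same span on each y axis. For Fcgr1 all KO points lie below all WT points of their age; for Fcgr3 the KO and WT points overlap at both ages.

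Within the KO arrays of 16 months the members fell into 2 patterns. Fcgr2b, Fcgr3 and Fcgr4 were low on KO arrays 1 and 2 and high on arrays 3 and 4, whereas Fcgr1 and Fcer1g were lowest on array 1 and lay close together on the other 3 (0.41 to 0.93 for Fcgr1 and 4.49 to 5.03 for Fcer1g). Over the 13 replicates Pearson's r was 0.983 between Fcgr1 and Fcer1g, 0.957 between Fcgr3 and Fcgr2b, 0.947 between Fcgr3 and Fcgr4 and 0.908 between Fcgr4 and Fcgr2b. Between the sets it ran between 0.726 (Fcgr1 with Fcgr4) and 0.83 (Fcgr1 with Fcgr2b). These replicates share slides and the KO replicates of 16 months span most of the range of each gene, so the coefficients describe this set of arrays. Taking KO arrays 1 and 2 against WT arrays 1 and 2, and KO 3 and 4 against WT 3 and 4, gave -5.21 and -3.78 for Fcgr1, -2.81 and -2.29 for Fcer1g, -3.70 and -0.94 for Fcgr4, -1.48 and -0.99 for Fcgr2b, and -1.45 and -0.87 for Fcgr3. All 10 values were below 0, but each rests on 1 WT replicate and the genes were correlated, so they are not independent.

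Of all 17797 other named features, the level of Fcgr1 was most like that of Il21r (r = 0.994), Slc2a5 (r = 0.993) and Hk2 (r = 0.992), and that of Fcer1g most like that of Cd52 (r = 0.994), Slc2a5 (r = 0.993) and Tagln2 (r = 0.992). Slc2a5, which encodes the fructose transporter GLUT5, was thus on both lists. Fcgr4 was nearest to Phf11d (r = 0.990), Fli1 (r = 0.984) and Trim30a (r = 0.983). Fcgr3 was nearest to Heatr5a, Galnt3 and Arl11 (r = 0.972 to 0.977), and Fcgr2b to Fam111a, Cd84 and Paxbp1 (r = 0.979 to 0.980). All of these are Pearson's r over the same 13 replicates.

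Genes that relay the activating signal were lower in KO microglia at 16 months more often than higher. Of 27 measured, 15 fell, 1 rose and 11 did not pass, where 15.1% of all features were lower and 19.3% higher. The median difference was -2.19 beside 0.12 over all features. The difference was -4.04 for Lat, a membrane scaffold, -5.35 for its partner Lcp2, the adaptor SLP-76, -3.31 for Plcg2, a phospholipase whose product releases calcium, and -2.19 for Grb2, an adaptor to the Ras pathway (adjusted p = 0.000159, 0.000162, 0.000454 and 0.00102 by limma). Syk, the kinase recruited by the ITAM and picked here after its value was seen, had a level of -1.77 in KO and 3.28 in WT, a difference of -5.05 (adjusted p = 0.00579). It was above background on 3 of 4 KO and 4 of 4 WT arrays, and its call was lost under 2 of 12 alternatives. Lcp2 was above background on 2 of 4 KO arrays and differed by -4.17 with normexp background correction. Lat was above background on 3 of 4 KO arrays, at a mean level of -4.70 near the floor of -4.94. With normexp background correction Lat differed by -2.54. Vav3, a guanine nucleotide exchange factor, was the 1 gene that rose (3.21, adjusted p = 0.00338), and it was above background on 4 of 4 KO and 1 of 4 WT arrays.

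Of 12 measured genes of inhibitory signaling, 8 fell, 0 rose and 4 did not pass, with a median of -2.01. Over all features 15.1% were lower and 19.3% higher. The difference was -4.11 for Inpp5d, the SHIP1 phosphatase that Fcgr2b recruits, and -1.05 for the related Inppl1 (adjusted p = 0.000128 and 0.0120). It was -4.77 for Ubash3b, a phosphatase that restrains Syk, -2.98 for Pag1, which anchors the kinase Csk, and -2.36 for Csk itself. The docking proteins Dok1, Dok2 and Dok3 differed by -2.06, -1.96 and -2.78. These 8 all passed. Pag1 was above background on 1 of 4 KO arrays and differed by -1.85 with normexp background correction. The call of Csk was lost under 4, that of Inppl1 under 3, and those of Dok1 and Dok3 under 2 of 13 alternatives. The phosphatases Ptpn6 and Ptpn11 differed by -0.46 and 0.58, and the ubiquitin ligases Cbl and Cblb by -1.24 and -0.33, without passing. Ptpn11 was -0.091 with quantile normalization.

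Of the other adaptors that pair with immune receptors, 0 of 3 passed limma's test at 16 months, and 1 had an unadjusted p under 0.05. Over all features 15.1% were lower and 19.3% higher, and 44.8% had an unadjusted p under 0.05. Tyrobp, the DAP12 adaptor of TREM2, had a level of 5.63 in KO and 6.83 in WT, a difference of -1.20 (adjusted p = 0.265). Hcst, the DAP10 adaptor, had -1.19 in KO and 1.64 in WT (difference -2.83, adjusted p = 0.0643), and under 6 of 13 alternatives it passed. Cd247, the zeta chain of T and NK cells, was above background on 0 of 4 KO and 1 of 4 WT arrays.

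Among 11 measured of 13 other Fc and Fc-like receptors, 3 fell and 2 rose at 16 months, with a median of -0.44. Over all features 15.1% were lower and 19.3% higher. The difference was -3.30 for Fcamr, a receptor of IgA and IgM, -5.31 for Fcrl1 and -2.18 for Fcrls, an Fc receptor-like gene expressed by microglia (adjusted p = 0.00111, 0.00317 and 0.0492). Fcrl1 was above background on 2 of 4 KO arrays. Fcgrt, which encodes the neonatal Fc receptor that recycles IgG inside cells, rose by 1.31 (adjusted p = 0.0247), with a level of 1.03 in KO and -0.27 in WT. Fcrlb rose by 1.23 (adjusted p = 0.0380). The call of Fcgrt was lost under 4, that of Fcrlb under 6 and that of Fcrls under 5 of 13 alternatives.

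Of 20 actin regulators of the phagocytic cup, 6 were lower, 4 higher and 10 not past the test at 16 months, beside 15.1% of all features lower and 19.3% higher, and their median was -0.44. Elmo1, Was, Rac2 and Coro1a, which act in leukocyte actin remodeling, differed by -4.85, -3.06, -1.84 and -2.33 (adjusted p = 0.000135, 0.000309, 0.000317 and 0.00281). Elmo1 was above background on 2 of 4 KO arrays and differed by -3.54 with normexp background correction. Myo10, a myosin of filopodia, rose by 3.87 (adjusted p = 0.00186). Cdc42, Actr3 and Dock1, which are widely expressed, rose by 0.94, 0.80 and 0.76 (adjusted p = 0.0186, 0.0219 and 0.0385), and these calls were lost under 4, 6 and 10 of 13 alternatives. Relative to the median of all features these 3 values would each be lower by 0.12.

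Of 12 regulators tied to the transcription of Fc receptor genes, 9 fell at 16 months, 0 rose and 3 did not pass. Their median was -2.61, and over all features 15.1% were lower and 19.3% higher. The difference was -3.12 for Ifngr1, the ligand-binding chain of the interferon gamma receptor, -3.22 for Irf1, one of its targets, and -3.99 for Socs3, a feedback inhibitor of cytokine receptors (adjusted p = 0.000526, 0.000272 and 0.000247). For Cebpb, a myeloid transcription factor, it was -3.09 (adjusted p = 0.00104). Spi1, which encodes PU.1 and was picked here after its value was seen, had a level of -4.76 in KO and -2.25 in WT (difference -2.51, adjusted p = 0.0251) and was above background on 1 of 4 KO and 4 of 4 WT arrays. Its call was lost under 3 of 12 alternatives, with a difference of -1.41 without WT arrays 3 and 4. In a model without the 4-month arrays, the genes past the threshold and lower were 4 of 27 in the activating list, 4 of 12 in the inhibitory list, 1 of 11 among the other Fc receptors, 3 of 20 in the cup list and 4 of 12 among these regulators, where 5.34% of all features were lower. At 4 months 0 of the 85 measured genes of these 6 lists passed limma's test, and 1 had an unadjusted p under 0.05. Over all features at that age 0.0251% were called and 6.05% had an unadjusted p under 0.05.

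**Figure D4:**
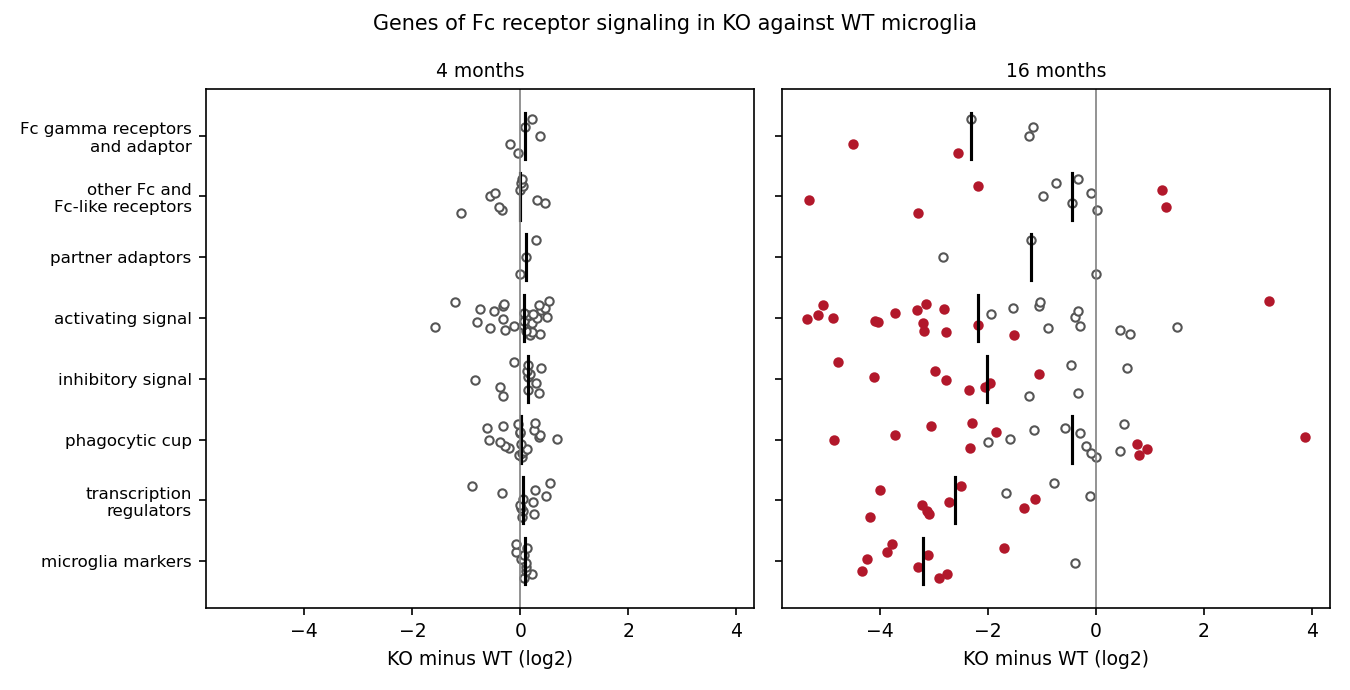
Difference between KO and WT microglia (log2, x axis) for each measured gene of the Fc receptor pathway lists and of the microglia markers, at 4 months (left) and 16 months (right); filled red points passed limma's test and black lines give list medians. At 16 months most filled points of the signaling lists lie below 0, and at 4 months no point is filled.

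Markers of microglia moved with these results. At 16 months 9 of 10 were called lower in KO, beside 15.1% of all features, with a median of -3.20. Their summed level was 230 to 570 times the 75th percentile on KO and 1089 to 1778 on WT replicates. Cx3cr1, Tmem119, Aif1 and Siglech differed by -4.32, -3.77, -2.91 and -1.71 and passed. Summed neutrophil markers (8 of 10 measured, without Ly6g) were 0.619 to 251 on KO and 81.9 to 369 on WT replicates, and monocyte markers (5 of 6) 7.49 to 72.2 on KO and 28.03 to 53.6 on WT. Border macrophage markers (6 of 6) were 22.3 to 78.8 on KO and 41.3 to 72.5 on WT, with Cd163 above background on 0 KO arrays. B cell markers (4 of 6) were 0.209 to 0.540 on KO and 1.501 to 2.12 on WT. Among these Cd79b had a level of -2.36 in KO and 0.71 in WT, whereas Cd79a and Pax5 differed by 0.28 and 0.86 at levels near the floor. NK cell markers (4 of 6) were 0.457 to 1.56 on KO and 0.409 to 0.751 on WT. Mast cell markers (5 of 6), whose cells also use Fcer1g, were 2.81 to 6.53 on KO and 0.353 to 1.79 on WT. Among them Kit had a level of 2.11 in KO and -1.10 in WT, and Tpsb2 had -2.65 in KO and -3.69 in WT. Cpa3, Mcpt4 and Cma1 lay near the floor in both (-4.28, -4.28 and -4.91 in KO). The part of these cell types in the lower levels of the Fc receptor genes was not tested.

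Among the protein-coding genes of chromosome 1 in RefSeq (GRCm38.p6), Fcgr2b, Fcgr4 and Fcgr3 are neighbors. Fcer1g follows after 7 other protein-coding genes, all of them measured. Of these 7 genes, 2 were higher and 1 lower in KO at 16 months, in a comparison where 19.3% of all features were higher and 15.1% lower. Cfap126 and Apoa2 rose by 3.03 and 1.94, and Nr1i3, a nuclear receptor, differed by -3.99 (adjusted p = 0.00180, 0.00571 and 0.00479 by limma). Sdhc, Pcp4l1 and Tomm40l differed by 0.60, 2.08 and 0.25 and did not pass. Sdhc was -0.17 with quantile normalization, and Tomm40l -0.055 with the 75th percentile over probes above background on all arrays.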

How the data were processed

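Per the labels' protocols, microglia were isolated by Percoll and cell sorting and labeled with Cy3. Per the file headers, the deposited processed signal is a background-subtracted spot intensity from Feature Extraction 10.7.3.1 on design 028005, and the 4-month arrays also carry a multiplicative detrend that the 16-month arrays lack. The submitters' processing notes name R 2.15.3 as well. Each array was divided by its 75th percentile of non-control spots. Repeat spots were averaged without outlier spots, signals under 0.0326 times the percentile (log2 of -4.94) were raised to that floor, and the brightest probe per gene among the 45616 of 55681 probes above background on at least 3 arrays was kept. One linear model over 13 replicates was fitted with limma 3.58.1 in R 4.3.3 (with the data.table package, 1.17.8), two-sided, adjusted by Benjamini-Hochberg over 31927 features, with a threshold of 0.05. Differences between 2 genes within a replicate were compared by exact permutation tests. Alternatives changed the background correction, normalization, filter, model and replicates. "Not well above background" follows the files' own flag, and a bound sets the WT mean against the floor.

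The 5 genes and all lists were chosen with earlier results of these data known. In each list, up to 4 genes of smallest adjusted p per direction are named, with all inhibitory genes and ITAM adaptors; Syk, Spi1 and the neighbors were added after their values were seen. Array gene names are those of the files, matched by symbol. The values of 1 marker and 1 neighboring gene are not reported here. The bead arrays of brain tissue were not used here.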

Additional observations from a re-analysis of the deposited data

Results flagged for a closer look

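Of 18 groups of replicates examined, 2 held a replicate far from the others, where chance gives about 1 in 20. The level of Fcgr1 in KO array 1 at 16 months was -4.51, next to 0.41 in the nearest KO replicate, and the probe was not well above background there. Fcgr4 minus Fcgr2b was -6.13 in KO array 2 at 16 months, next to -3.55 in the nearest KO replicate. The causes were not tested.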

How the results depend on the processing

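Of the 5 genes at 16 months, all kept a negative difference under each of the alternatives run, including each replicate left out. The calls of Fcgr1 and Fcer1g were lost in a model without the arrays of the other age (-4.49, adjusted p = 0.168, and -2.55, adjusted p = 0.09996), where 3459 features passed at 16 and 26 at 4 months. With every array as its own replicate Fcgr4 passed (-2.32, adjusted p = 0.0329), as did the interaction terms of Fcgr1 (-4.30) and Fcer1g (-2.51) and Fcgr1 over Fcgr2b at both ages (-1.90, adjusted p = 0.00490), with 16 features at 4 months and 6787 in the interaction. The Fcer1g term also passed with quantile normalization (-2.81), normexp (-2.72, with Fcgr1 at -3.98), the percentile over detected probes (-2.74) and probes above background on all arrays (-2.51), a filter that Fcgr1 did not pass. At 4 months 2, 1 and 0 features passed with quantile normalization, normexp and that filter, which also removes Grn; the signs near 0 turned for Fcgr3 (-0.0066, quantile) and Fcer1g (0.098, normexp).

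Leaving out 1 replicate gave, at 16 months, 7785 to 11907 features, Fcgr1 -5.002 to -3.19 (-4.97 without WT arrays 1 and 2 and -4.02 without WT arrays 3 and 4), Fcer1g -2.86 to -2.01 (-2.23 without WT arrays 3 and 4), Fcgr4 -3.03 to -1.34, Fcgr3 -2.13 to -0.19 and Fcgr2b -2.06 to -0.40 (-0.82 without KO array 1 and -1.76 without KO array 4). At 4 months it gave 3 to 10 features, Fcgr1 -0.43 to -0.051, Fcer1g -0.18 to 0.041, Fcgr3 -0.047 to 0.23, Fcgr4 0.014 to 0.36 and Fcgr2b 0.15 to 0.50. The interaction gave 2434 to 5640 features, Fcgr1 -4.81 to -3.00 and Fcer1g -2.82 to -1.97 (-2.79 without KO array 3 of 16 months). Fcgr1 over Fcgr2b at both ages was -2.31 to -1.46. Among these settings its exact permutation test passed only without KO array 2 of 16 months (-2.31, adjusted p = 0.0343). Fcgr3 over Fcgr2b was -0.10 to 0.36 at 16 months (-0.071 without WT arrays 1 and 2) and -0.18 to 0.049 at both ages. Of 51 other named genes, 40 were called, beside 34.4% of all features. Many of the 51 were named because they had the smallest adjusted p here, so this count follows in part from the choice. Of the 40, 0 reversed and 20 stayed past the threshold throughout. Ptpn11 (-0.091) and Sdhc (-0.17) turned with quantile normalization, Tomm40l with the percentile over detected probes (-0.055) and without WT arrays 1 and 2 (-0.14), and Cblb without WT arrays 3 and 4 (0.19) and KO array 2 (0.00054), against -0.72 without KO array 3. Counts of lower genes moved by over 1.5 times in the model without the other age (4 activating, 4 inhibitory, 1 other Fc receptor, 3 of the cup and 4 regulators, against 15, 8, 3, 6 and 9), with quantile normalization (5 other Fc receptors) and without WT arrays 3 and 4 (4 inhibitory); of the 3 partner adaptors 0 to 2 passed. The causes of these changes were not tested.

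With the replicate block, Fcgr1 at 16 months no longer passed (-4.49, adjusted p = 0.0531), Fcgr2b did (-1.23, adjusted p = 0.0424), 1 feature passed at 4 months and 1956 in the interaction; other member calls were unchanged. Correlations of same-numbered deviations were -0.043 to -0.035 at 4 months and 0.104 to 0.132 at 16 months, which rest on 2 WT replicates, so the numbers were not taken as pairs. The normexp setting used median spot signals, as the files hold no mean, and was chosen after seeing the data, as were the settings for lists and other named genes. The median of all features at 16 months was 0.44 with normexp and 0.48 with probes above background on all arrays. Tests of brain tissue were not run, since the bead probes could not be named from the tables used here.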
